A study of Mus musculus with 8 samples.

Results

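Genes of the acinar cell, the pancreatic cell that makes and secretes digestive enzymes, were followed across 8 pancreatic tumours. The 36 genes listed for this purpose encode proteases, lipases, an amylase, nucleases, proteins of the secretory pathway and transcription factors. Of these, 33 were found by symbol among the 19129 genes measured, and expression of Prss1, Prss3 and Ptf1a was not analysed here. The 33 genes were 13 of the 15 proteases listed, all 6 lipases and lipase cofactors, the amylase, both nucleases, all 8 secretory and other genes, and 3 of the 4 transcription factors. The tumours were isografts, tumour tissue grown in mice of matching background, from 8 mice. Tumours of 4 mice are labelled MEKi and had 7 days of trametinib, a drug that blocks MEK1 and MEK2, and tumours of 4 mice are labelled control. What the control mice received, the tumour line, the strain and the age were not among the labels. Total RNA was sequenced, and values are given on the deposited log2-like scale, on which 5.115 stands for 0 reads, or as normalised reads recovered from it.

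Acinar cells store inactive enzyme precursors in zymogen granules and release them into the ducts of the gland. Their gene programme is held by a small set of transcription factors, among them the PTF1 complex, made of PTF1A, an E-protein and RBPJL, together with the factors MIST1 (gene Bhlha15) and NR5A2. In pancreatic cancer models acinar cells lose this programme as they take on a duct-like state, and tumour pieces can also hold neighbouring gland.

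Libraries held between 20090101 and 38569550 reads in the genes measured. Dusp6, a phosphatase gene that ERK signalling switches on, did not separate the labels, with 8.88, 12.12, 12.20 and 11.01 in MEKi 1 to 4, against 12.19, 12.14, 9.31 and 9.24 in control 1 to 4. The limma difference was 0.33 (95% interval -1.70 to 2.36, adjusted p = 1). Libraries of both labels were therefore high and low, and comparisons below are between labels as given. The abundant duct cell genes Krt18 and Spp1 had group means of 15.26 and 17.39 in MEKi tumours, against 15.31 and 17.33 in control tumours. MEKi 4, the MEKi library richest in acinar reads, was lowest for Cftr and Epcam. Cftr, a chloride channel gene of duct cells, had 11.18, 11.79, 11.34 and 6.76 in MEKi 1 to 4, against 11.64, 11.51, 11.31 and 10.96 in control 1 to 4. Epcam, an epithelial adhesion gene named after its values were seen, had 13.10, 13.01, 12.67 and 10.70 in MEKi 1 to 4, against 12.83, 12.68, 13.05 and 12.66 in control 1 to 4.

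The acinar genes separated the libraries by orders of magnitude, and not by label. They took 0.0582%, 0.0460%, 0.0107% and 0.354% of all reads in MEKi 1 to 4, against 0.0949%, 5.97%, 16.4% and 0.0404% in control 1 to 4. Control 2 and control 3 thus stood far above the rest, MEKi 4 came next, and MEKi 3 was lowest. These shares include Gatm, which did not follow the enzymes and gave 2364 of the 3201 reads in MEKi 3. In control 3, 20 of the 33 genes were among its 100 most abundant genes, and in control 2 it was 16. In each of the other 6 libraries the number was 0. Ctrb1, which encodes the chymotrypsin precursor, was the most abundant of all genes in control 3 and ranked 14758 in MEKi 3. In bulk tissue, fewer acinar cells and less RNA per acinar cell cannot be told apart.

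**Figure D1:**
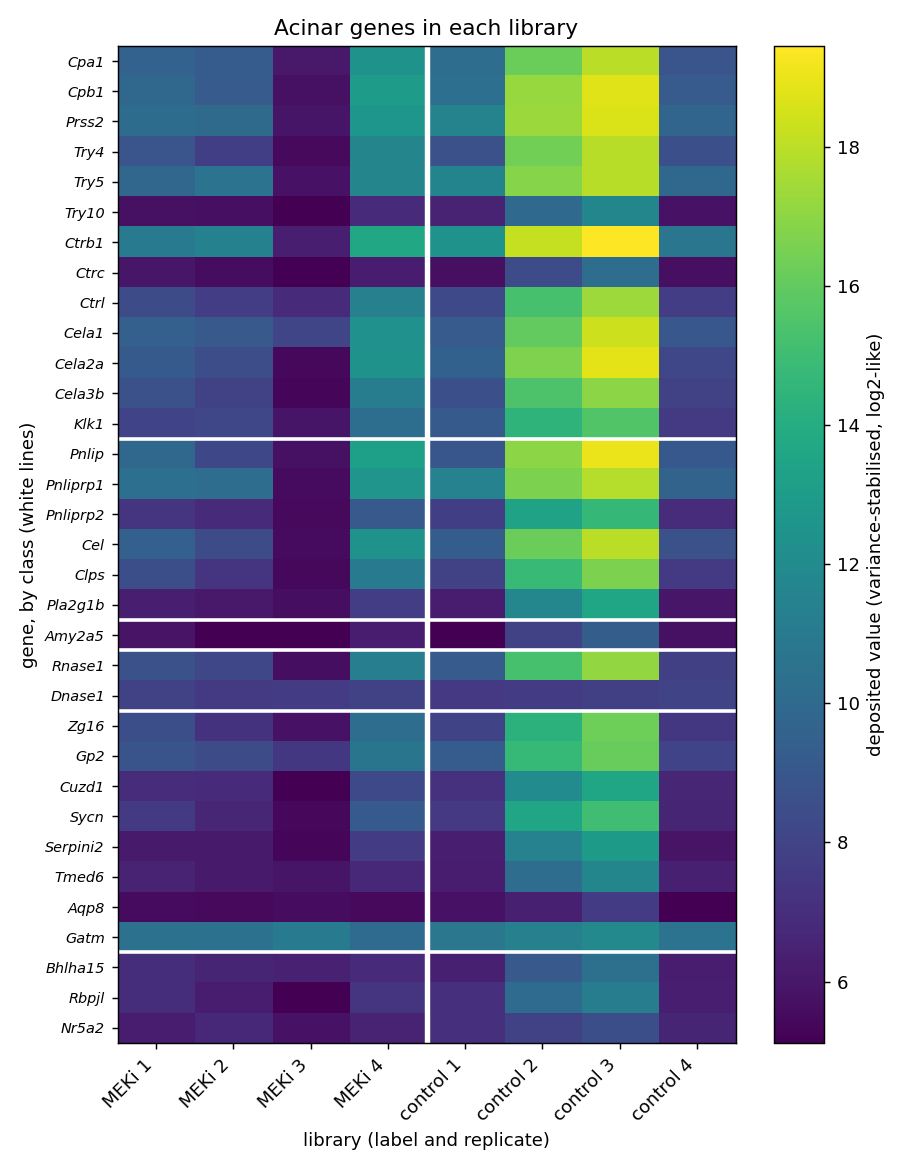
Heat map of the deposited log2-like value (colour) of the 33 acinar genes (rows, grouped by class between white lines) in the 4 MEKi libraries (left) and the 4 control libraries (right). Control 2 and control 3 are bright for most genes and MEKi 3 is dark for most, while the rows of Dnase1 and Gatm keep nearly one colour.

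Among the proteases, Cpa1, a carboxypeptidase that trims residues from the end of a peptide chain, had 9.65, 9.28, 6.09 and 12.41 in MEKi 1 to 4, against 10.23, 16.24, 17.95 and 8.88 in control 1 to 4. In normalised reads these are 734, 553, 16.3 and 5378 in MEKi 1 to 4, against 1134, 77086, 252504 and 404 in control 1 to 4. The groups overlapped, since MEKi 4 exceeded control 1 and control 4, and control 4 lay below MEKi 1 and MEKi 2. Ctrb1 had 11.11, 11.40, 6.31 and 13.72 in MEKi 1 to 4, against 12.46, 18.17, 19.46 and 10.77 in control 1 to 4. The elastase Cela2a had 9.16, 8.48, 5.43 and 12.41 in MEKi 1 to 4, against 9.54, 16.69, 18.84 and 8.19 in control 1 to 4. Control 3 was the highest library for 32 of the 33 genes, the exception being the nuclease gene Dnase1.

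Levels per kilobase of transcript put Ctrb1 first in control 3, at 818746 normalised reads per kilobase, followed by the trypsinogen gene Prss2 at 506850, Cela2a at 439138 and the lipase gene Pnlip at 361904. The lowest proteases there were the trypsinogen gene Try10 at 3712 and Ctrc at 1194. Ctrc is listed by RefSeq as a transcribed pseudogene in mouse, and its annotated exons overlap those of Cela2a by 305 bases on the same strand. Trypsinogen genes lie together on chromosome 6 and resemble one another. Of the 50-base stretches of the Try4 transcript, 65.6% also occur in transcripts of other genes, and the shares were 53.9% for Try5, 40.8% for Try10 and 7.83% for Prss2. For the trypsinogen genes with no value here, Prss1 and Prss3, the shares were 54.9% and 66.1%. Values of single trypsinogen genes are therefore uncertain, as the sources do not state how shared reads were counted. The transcripts of Cpa1, Cpb1, Ctrb1, Ctrl and Cela1 share no such stretch.

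The lipase genes spanned a similar range. Pnlip, the triglyceride lipase of pancreatic juice, had 9.95, 8.24, 5.77 and 13.23 in MEKi 1 to 4, against 8.95, 16.98, 19.04 and 9.04 in control 1 to 4. Pnliprp1, a related protein with little lipase activity of its own, had 10.33, 10.22, 5.56 and 12.61 in MEKi 1 to 4, against 11.49, 16.63, 17.87 and 9.65 in control 1 to 4. Per kilobase of transcript, the order of these genes differed between libraries. Pnliprp1 exceeded Pnlip in MEKi 1, MEKi 2, control 1 and control 4. Pnlip exceeded Pnliprp1 in MEKi 4, control 2 and control 3, and also in MEKi 3. There the order rests on 9 Pnlip and 4 Pnliprp1 reads and is uncertain. Clps, the cofactor that holds the lipase on fat droplets, ranged between 5.43 and 10.94 in MEKi tumours and between 7.55 and 16.60 in control tumours. Cel, the bile-salt-activated lipase gene, ranged between 5.56 and 12.44 in MEKi tumours and between 8.68 and 17.99 in control tumours.

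Amylase, the starch-digesting enzyme, was represented by Amy2a5 with few reads. Amy2a5 had 10, 0, 0 and 34 reads in MEKi 1 to 4, against 0, 198, 433 and 6 reads in control 1 to 4. A count of 0 allows up to 3 reads. Even in control 3 the gene gave 160 normalised reads per kilobase, against 159510 for Cpa1. Of the 50-base stretches of its transcript, 57.2% also occur in transcripts of other genes, 57.1% in Amy2a2 alone, so its level is uncertain. The neighbouring amylase gene Amy2b, outside the 36 genes, had 7.52, 6.13, 5.115 and 7.88 in MEKi 1 to 4, against 6.39, 11.44, 12.79 and 6.17 in control 1 to 4. The nuclease gene Rnase1, for an enzyme that cleaves RNA in the gut, had 8.67, 8.14, 5.65 and 11.25 in MEKi 1 to 4, against 9.21, 15.30, 17.14 and 7.83 in control 1 to 4.

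Genes of zymogen granule proteins were also highest in control 3, control 2 and MEKi 4. Gp2, the main glycoprotein of the granule membrane, had 8.84, 8.37, 7.44 and 10.72 in MEKi 1 to 4, against 9.27, 14.73, 16.10 and 8.02 in control 1 to 4. Zg16, a granule lectin, had 8.55, 7.22, 5.81 and 10.21 in MEKi 1 to 4, against 8.06, 14.36, 16.29 and 7.42 in control 1 to 4. Sycn (syncollin, a granule protein), Cuzd1 (a granule membrane protein) and Serpini2 (a serine protease inhibitor of the pancreas) ranged up to 9.20, 8.27 and 7.66 in MEKi tumours and up to 15.07, 13.56 and 12.91 in control tumours. Aqp8, a water channel gene, was near the limit of detection in most libraries, with 3, 2, 5 and 3 reads in MEKi 1 to 4, against 8, 33, 97 and 0 reads in control 1 to 4.

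Over the 7 libraries other than MEKi 3, levels of the transcription factor genes spanned 3.78 to 6.56 in log2 normalised reads, against 8.04 to 11.15 for single protease and lipase genes. Bhlha15 had 6.99, 6.61, 6.45 and 6.82 in MEKi 1 to 4, against 6.37, 9.14, 10.42 and 6.26 in control 1 to 4. Rbpjl had 7.00, 6.26, 5.115 and 7.25 in MEKi 1 to 4, against 7.04, 10.15, 11.15 and 6.32 in control 1 to 4. Nr5a2 had 6.25, 6.71, 5.84 and 6.51 in MEKi 1 to 4, against 7.04, 7.94, 8.59 and 6.58 in control 1 to 4. All 3 were highest in control 3 and next highest in control 2, and the labels overlapped for each of them. Rbpjl had 0 reads in MEKi 3, the library with the fewest acinar reads, where Bhlha15 had 39 reads and Nr5a2 had 11. Partners and regulators of these factors that other cells also use were set beside them. Over 10 such genes the library means lay between 9.99 and 10.34 in MEKi tumours and between 10.03 and 10.25 in control tumours. In this list 6 genes were higher and 4 were lower in sign, with 0 called.

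Start regions of the genes were read for motifs of the factors named above. RefSeq start regions, 250 bases before to 50 after the start on GRCm38.p6, were matched by symbol for 31 of the 36 genes, of which 28 have expression values here and 3 (Prss1, Prss3 and Ptf1a) do not. A gene with several start regions was counted once, for a motif in any of them. The E-box CACCTG, a sequence bound by PTF1 and related factors, was found on either strand in 18 of 31 genes (58.1%), against 22.6% of 27025 genes with such a region. Among the 28 genes with expression values it was found in 16 (57.1%). The general E-box CANNTG, which includes CACCTG, was present in 83.9%, against 74.99% of all. CAGCTG, another E-box form, was present in 22.6%, against 18.3% of all. TTTCCC, the core of the other half-site of PTF1, was present in 32.3%, against 27.9%. The general E-box and the other half-site, starting 6 to 30 bases apart, were present in 16.1%, against 6.19%. CAAGGTCA, a form of the NR5A2 motif, was present in 2 genes (6.45%), against 1.76%. CATATG, an E-box form of MIST1, was present in 0 of 31, against 4.48%. Neither these shares nor single matches show binding.

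Start regions of 4 genes are printed, with every general E-box and every PTF1 half-site of the spellings above, on either strand, in capitals. Pnlip (chr19:58670115-58670414, plus strand) and Pnliprp1 (chr19:58728637-58728936, plus strand) encode the related lipases compared below. Ctrb1 (chr8:111690961-111691260, minus strand) was the most abundant gene in control 3, and Cel (chr2:28563354-28563653, minus strand) holds CACCTG, the PTF1 half-site and the NR5A2 motif.
Pnlip: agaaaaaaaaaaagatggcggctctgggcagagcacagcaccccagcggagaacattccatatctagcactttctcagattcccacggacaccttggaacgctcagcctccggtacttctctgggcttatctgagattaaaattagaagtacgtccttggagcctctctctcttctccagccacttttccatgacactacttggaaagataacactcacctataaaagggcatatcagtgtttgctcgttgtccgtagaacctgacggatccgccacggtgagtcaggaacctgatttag
Pnliprp1: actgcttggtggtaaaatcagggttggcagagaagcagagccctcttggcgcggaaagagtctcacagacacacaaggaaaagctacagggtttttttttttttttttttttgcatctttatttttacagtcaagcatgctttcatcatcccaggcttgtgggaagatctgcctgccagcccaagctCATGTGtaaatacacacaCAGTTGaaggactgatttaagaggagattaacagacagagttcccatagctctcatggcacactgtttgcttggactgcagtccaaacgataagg
Ctrb1: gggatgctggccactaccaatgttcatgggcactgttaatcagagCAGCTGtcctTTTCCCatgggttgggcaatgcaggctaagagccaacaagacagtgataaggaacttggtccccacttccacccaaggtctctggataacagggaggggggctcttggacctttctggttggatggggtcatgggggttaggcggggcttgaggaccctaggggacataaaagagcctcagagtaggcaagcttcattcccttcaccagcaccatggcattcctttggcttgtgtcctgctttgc
Cel: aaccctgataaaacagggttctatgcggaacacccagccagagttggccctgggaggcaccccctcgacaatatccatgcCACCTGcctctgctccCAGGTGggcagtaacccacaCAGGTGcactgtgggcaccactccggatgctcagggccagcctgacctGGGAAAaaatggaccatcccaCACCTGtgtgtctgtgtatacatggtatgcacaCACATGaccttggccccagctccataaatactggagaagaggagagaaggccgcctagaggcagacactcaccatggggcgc
The Pnlip region held 0 of either motif and the Pnliprp1 region held 2 general E-boxes. The Ctrb1 region held 1 of each motif, and the Cel region held 5 general E-boxes and 1 half-site.

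Between the labels, limma called 0 of the 33 genes lower or higher in MEKi tumours, against 0.00523% of all genes called in either direction. All 33 were lower in sign, against 48.4% of all genes, with a median difference of -3.49 on the log2 scale, against 0.01 over all genes. At an unadjusted p under 0.05 were 4 genes, Prss2, Try5, Try10 and Nr5a2, where 1.3% of all genes were lower and 0.465% higher at that level. For none of the 33 genes did all MEKi libraries lie below all control libraries, which held for 0.701% of all genes, and the reverse held for 0.565%. Cpa1 averaged 9.36 ± 2.59 in MEKi tumours and 13.32 ± 4.44 in control tumours (SD, n = 4 each), a difference of -3.97 (SE 2.04, 95% interval -8.54 to 0.61, limma adjusted p = 1). Nr5a2, the gene with the smallest unadjusted p, averaged 6.33 ± 0.38 in MEKi tumours and 7.53 ± 0.90 in control tumours (SD, n = 4 each), a difference of -1.20 (SE 0.40, 95% interval -2.11 to -0.30, limma adjusted p = 1).

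The differences were carried by control 2 and control 3. Without both control 2 and control 3, 17 of the 33 genes were lower in sign and the median difference was -0.02. Without these and MEKi 3, 4 were lower in sign and the median difference was 0.49. The Cpa1 difference was then -0.20 (SE 1.45) without control 2 and control 3, and 0.89 (SE 0.93) also without MEKi 3. Limma called 0 of the 33 genes in each of these fits. Both sets of libraries were left out after their values had been seen.

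**Figure D2:**
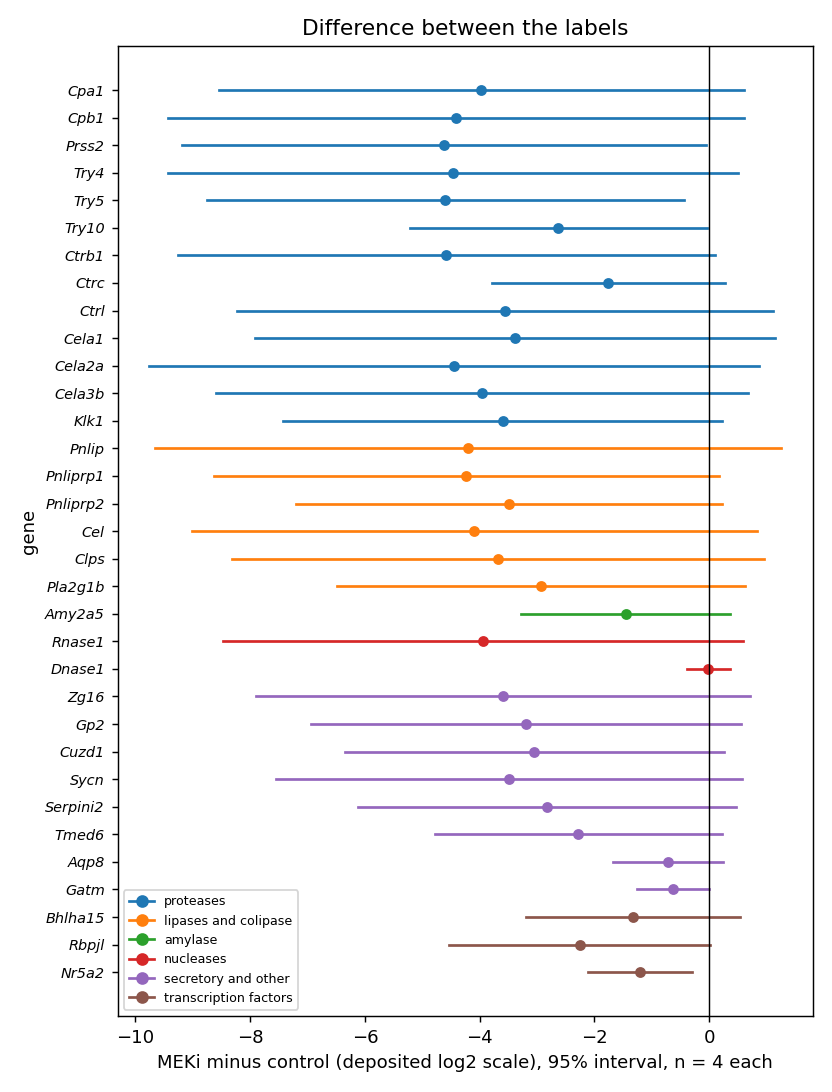
Difference between MEKi and control tumours in the deposited log2-like value for each of the 33 acinar genes (points, limma, n = 4 each) with its 95% interval (bars), coloured by class. All points lie below 0, and the bars of Try5, Prss2, Try10 and Nr5a2 end below 0, while none passes adjustment over all genes.

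The make-up of the acinar transcripts was compared next, to ask whether the genes kept fixed proportions while their total varied. Proteases gave 56.4%, 65.0%, 13.2% and 64.2% of the reads of the 33 genes in MEKi 1 to 4, against 68.2%, 71.6%, 69.4% and 58.6% in control 1 to 4. Lipases and their cofactors gave 22.6%, 15.1%, 0.875% and 27.2% in MEKi 1 to 4, against 17.2%, 21.5%, 23.4% and 17.7% in control 1 to 4. Leaving MEKi 3 aside, proteases thus gave 56.4% to 71.6% and lipases 15.1% to 27.2% of these reads. The acinar share of all reads ranged between 0.0404% and 16.4% over these libraries. The exact 95% binomial interval of the protease share covers counting error only. It was 55.6% to 57.2% in MEKi 1 and 67.5% to 68.8% in control 1, so these shares differed beyond counting error. The total behind the shares includes Gatm, with 1538 of 15808 reads in MEKi 1 and 2717 of 3658530 in control 3. In MEKi 3 Gatm gave 2364 of 3201 reads. Without Gatm in the total, proteases gave 8915 of 14270 reads in MEKi 1 and 424 of 837 in MEKi 3. They gave 14883 of 20272 in control 1, 2539896 of 3655813 in control 3 and 4764 of 6931 in control 4. Gatm thus lowered the protease shares above more in libraries of few acinar reads, and part of their spread comes from it. Lipase shares without Gatm were not taken. Secretory and other genes gave 16.3%, 16.1%, 79.1% and 5.46% in MEKi 1 to 4, against 11.3%, 4.34%, 4.21% and 19.01% in control 1 to 4. Most reads of this class came from Gatm in MEKi 1, MEKi 2, MEKi 3, control 1 and control 4. With Gatm left out of the class and the total, its share was 7.26%, 4.73%, 20.1% and 4.29% in MEKi 1 to 4, against 4.45%, 4.19%, 4.14% and 5.06% in control 1 to 4.

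**Figure D3:**
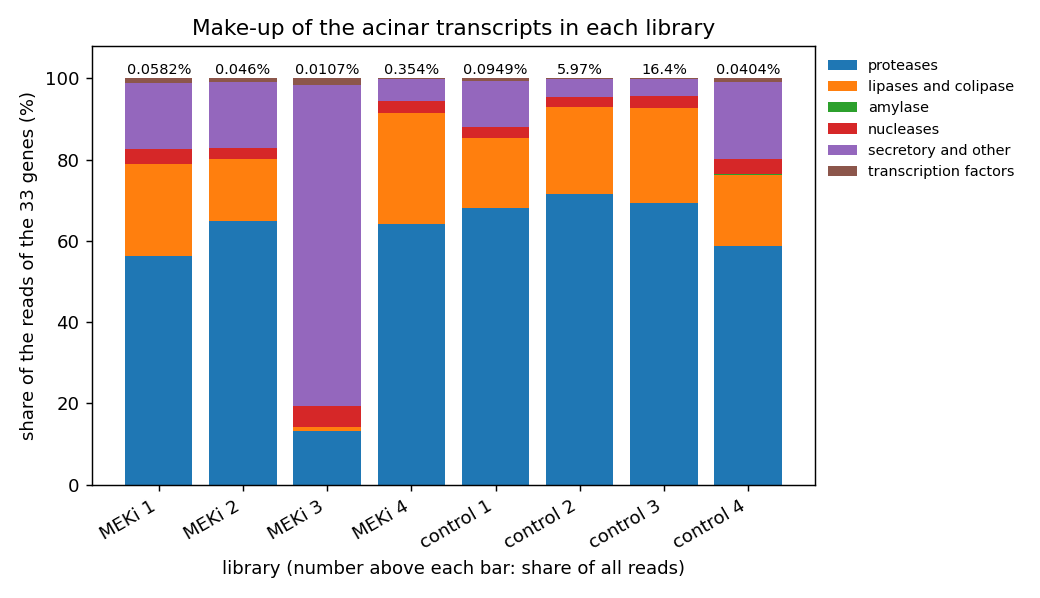
Share of the reads of the 33 acinar genes taken by each class (stacked bars, %) in the 4 MEKi libraries (left) and the 4 control libraries (right), with the share of all reads taken by the 33 genes above each bar. In MEKi 3, secretory and other genes take 79.1%, and in every other library proteases and lipases together take most reads.

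Ratios were taken to Cpa1 in log2 of normalised reads plus 0.5. Over the 7 libraries other than MEKi 3, which held only 20 Cpa1 reads, the ratio of Rnase1 to Cpa1 spanned 0.54 on the log2 scale while Rnase1 itself spanned 9.78. Ratios spanned 0.59 for Serpini2, 0.76 for Pnliprp2, 0.95 for Gp2 and 0.97 for Ctrb1 and Cela3b. The proportion of each of these 6 genes to Cpa1 thus varied less than 2-fold over these 7 libraries. Their levels spanned between 8.49 and 9.78 on the log2 scale. Serpini2 had as few as 8 reads, in control 4, where counting error alone has an SD of 0.51 on that scale. Of the 50-base stretches of the Cela3b transcript, 33.2% also occur in Cela3a. Of the 32 genes set against Cpa1, 21 had ratios spanning at most 2 on the log2 scale and 7 had ratios spanning more than 3. With MEKi 3 included, these counts were 11 and 15, and ratios spanned 0.83 for Rnase1, 0.92 for Pnliprp2, 1.67 for Ctrb1, 1.71 for Serpini2, 2.87 for Cela3b and 4.58 for Gp2. The Gp2 value there rests on 136 Gp2 reads and 20 Cpa1 reads.

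Leaving aside Dnase1 and the genes of few reads, Amy2a5 and Ctrc, the enzymes with the widest ratios were Pnlip and the trypsinogens Try5 and Try4. The Pnlip to Cpa1 ratio spanned 2.496 on the log2 scale, at 0.33, -1.22, -1.10 and 0.83 in MEKi 1 to 4, against -1.40, 0.75, 1.09 and 0.19 in control 1 to 4. MEKi 2 and control 1 were the lowest of the 7 libraries for this ratio, and also for the ratios of Clps and Cel. Try5 spanned 2.21, with 1.15, 2.63, 0.55 and 0.575 reads per Cpa1 read in MEKi 1 to 4, against 2.67, 1.53, 0.986 and 2.18 in control 1 to 4. Here MEKi 2 and control 1 were the highest.

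**Figure D4:**
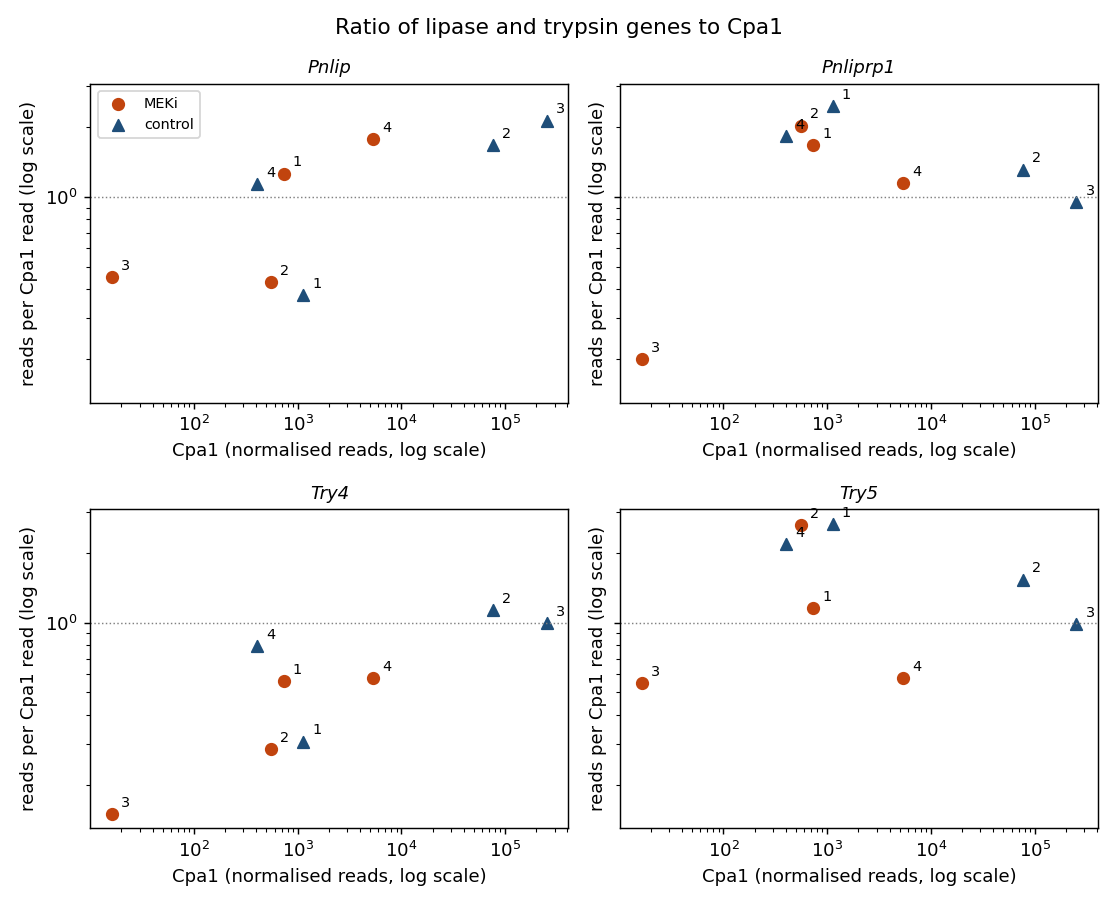
Reads of Pnlip, Pnliprp1, Try4 and Try5 per Cpa1 read (vertical, log scale) against the Cpa1 level in normalised reads (horizontal, log scale), with MEKi libraries as circles and control libraries as triangles, numbered by replicate. Among the 7 libraries other than MEKi 3, MEKi 2 and control 1 are lowest for Pnlip and Try4 and highest for Pnliprp1 and Try5, and the points of MEKi 3 rest on 20 Cpa1 reads.

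Within gene families the change of proportion was plain, although these pairs were chosen after their values were seen. Pnlip reads per Pnliprp1 read were 0.756, 0.211, 2.25 and 1.54 in MEKi 1 to 4, against 0.153, 1.28, 2.25 and 0.623 in control 1 to 4. Counting intervals (95%, exact binomial) ran between 0.179 and 0.248 in MEKi 2 and between 0.696 and 0.821 in MEKi 1, libraries with similar Cpa1 levels. Over the 7 libraries other than MEKi 3 the ratio differed 14.7-fold, and the transcripts share no 50-base stretch. In MEKi 3 it rested on 9 and 4 reads, with an interval between 0.628 and 9.999. Try4 reads per Try5 read were 0.483, 0.108, 0.273 and 1.005 in MEKi 1 to 4, against 0.115, 0.742, 1.01 and 0.364 in control 1 to 4, again lowest in MEKi 2 and control 1. These genes share 45.9% of their 50-base stretches, so that this ratio is less certain. Cela2a reads per Ctrb1 read were 0.237, 0.111, 0.0645 and 0.401 in MEKi 1 to 4, against 0.122, 0.358, 0.654 and 0.136 in control 1 to 4. The MEKi 3 value rests on 2 Cela2a reads, with an interval between 0.0075 and 0.254. Of the 50-base stretches of the Cela2a transcript, 25.6% also occur in Ctrc, so that this ratio is also less certain. The closest libraries in the whole transcriptome after MEKi 1 and control 4 were MEKi 2 and control 1. Their median squared deviation was 5.10 times that of the sampling noise of their reads.

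Per kilobase, Pnlip ranked 15 among the 33 genes in MEKi 2 and in control 1, against 3 in MEKi 4, 6 in control 2 and 4 in control 3. Ctrb1 ranked 1 in all 5 of these libraries. Ranks were not taken in MEKi 1, MEKi 3 and control 4. In MEKi 1 and control 4, also poor in acinar reads, Pnlip exceeded Cpa1 per kilobase, at 621 and 309 against 463 and 255. In MEKi 2 and control 1 it lay below Cpa1, at 159 and 288 against 349 and 716. The place of Pnlip thus differed among libraries poor in acinar reads. Between the libraries richest in acinar reads, normalised reads in control 3 over those in control 2 were 3.34-fold at the median of 21 enzyme genes without Dnase1. The fold ranged between 2.11 for Try5 and 5.17 for Cela1.

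Proportions were then tested between the labels. Of 8 ratios to Cpa1 planned, 7 were formed, that of Ptf1a being the exception. None of the 7 passed the threshold between MEKi and control tumours in exact permutation tests over 70 relabellings (two-sided, adjusted over the 7 ratios, smallest adjusted p = 0.45, where the smallest unadjusted p possible is 0.0286). The mean log2 ratio of Try4 to Cpa1 was -1.49 ± 0.83 in MEKi tumours and -0.46 ± 0.85 in control tumours (SD, n = 4 each, exact permutation p = 0.143, adjusted p = 0.45). That of Pnlip was -0.29 ± 1.03 in MEKi tumours and 0.15 ± 1.10 in control tumours (SD, n = 4 each, exact permutation p = 0.657, adjusted p = 0.657). A ratio that separated the labels completely would, by itself, stay above the threshold after adjustment over the 7 ratios. The tests could thus hardly pass any ratio. With 4 tumours a label and such spreads, these tests also do not show that the ratios are alike.

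Several genes of the list did not follow the enzymes. Gatm, which encodes the first enzyme of creatine synthesis and is active in kidney and pancreas, had 10.52, 10.53, 10.96 and 10.14 in MEKi 1 to 4, against 10.82, 11.39, 11.89 and 10.56 in control 1 to 4. Dnase1, for a secreted nuclease also made in kidney and salivary gland, had 7.92, 7.55, 7.60 and 7.94 in MEKi 1 to 4, against 7.51, 7.66, 7.85 and 8.04 in control 1 to 4. Normalised reads of the highest library over the lowest were 1.67-fold for Dnase1 and 3.503-fold for Gatm, against 15471-fold for Cpa1. The Dnase1 difference between labels was -0.01 (95% interval -0.39 to 0.36, limma adjusted p = 1), and it turned to 0.028 under quantile normalization, 0.0065 with aligned medians and 0.021 by limma voom. Ratios to Cpa1 over the 7 libraries spanned 4.17 on the log2 scale for Bhlha15, 3.42 for Rbpjl and 6.26 for Nr5a2. Control 3 over control 2 was 2.62-fold for Bhlha15, 2.07-fold for Rbpjl and 1.76-fold for Nr5a2, against 3.28-fold for Cpa1 and 2.11-fold to 5.17-fold over the 21 enzyme genes without Dnase1. Bhlha15 thus lay within the range of the enzymes in this pair of libraries. Rbpjl and Nr5a2 lay below its lowest value, that of Try5, which shared stretches make uncertain. For Rbpjl the gap was only 2.07-fold against 2.11-fold, and Nr5a2 rested on 232 and 210 reads. Whether these gaps exceed counting error was not tested.

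**Figure D5:**
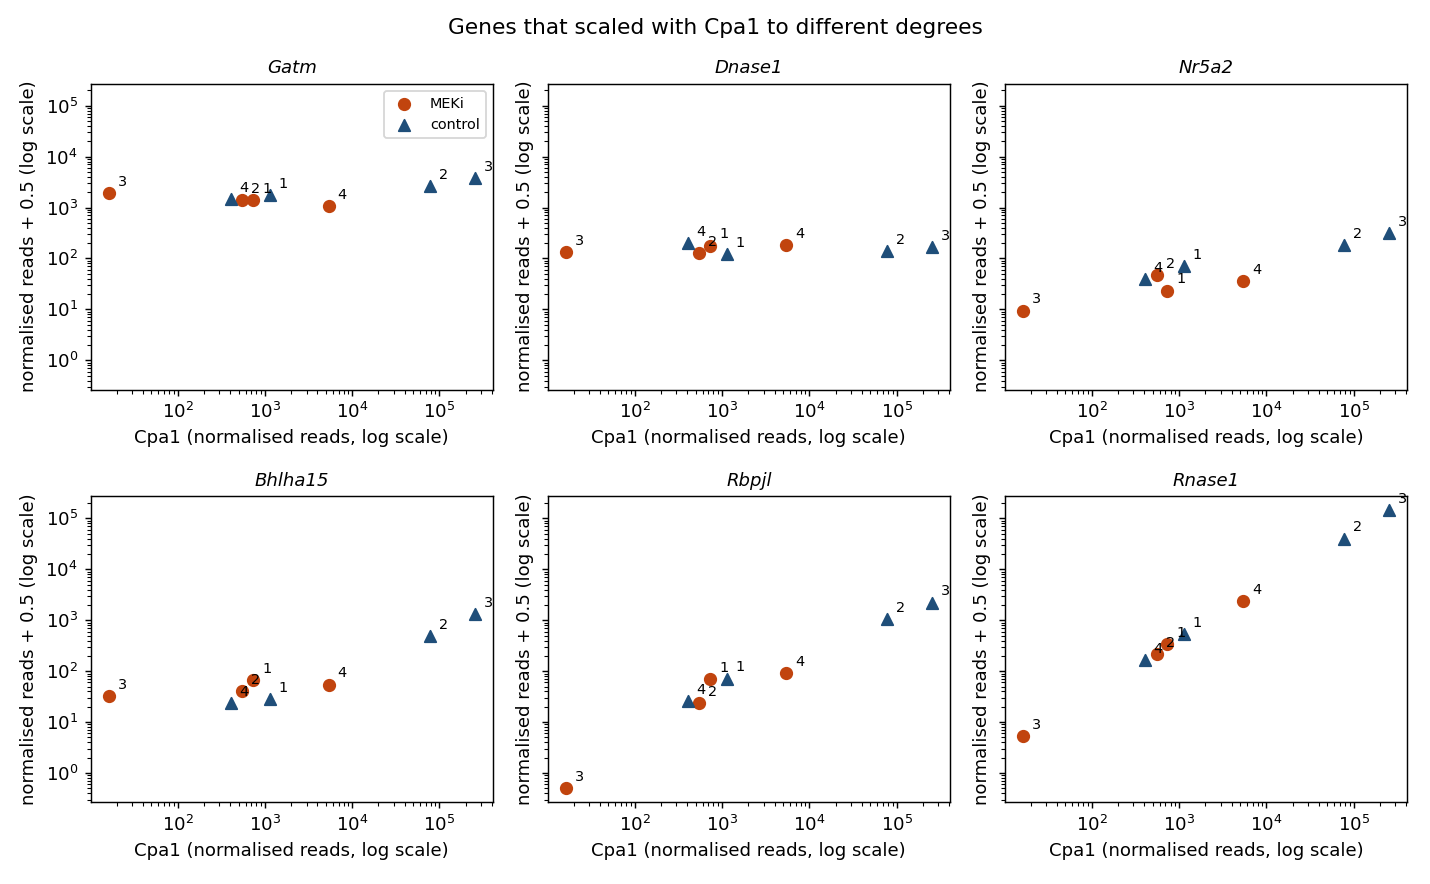
Normalised reads plus 0.5 of Gatm, Dnase1, Nr5a2, Bhlha15, Rbpjl and Rnase1 (vertical, log scale) against Cpa1 (horizontal, log scale), with MEKi libraries as circles and control libraries as triangles, numbered by replicate. Dnase1 and Gatm run nearly flat, the 3 transcription factor genes rise less than Cpa1, and Rnase1 rises with it.

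In MEKi 3, few reads of the 33 genes were found, and most came from Gatm, which did not follow the enzymes. Without Gatm, 837 reads were left. Gatm gave 2364 of the 3201 reads of the 33 genes there, followed by Cela1 with 253, Dnase1 with 161, Gp2 with 136 and Ctrl, a chymotrypsin-like protease gene, with 68. Ctrb1 gave 31 and Cpa1 gave 20, and 5 genes had no read. The insulin gene Ins2 was also at the floor in this library. Ins2 had 11.54, 9.65, 5.115 and 9.85 in MEKi 1 to 4, against 10.55, 9.62, 11.96 and 10.27 in control 1 to 4. The 12 islet markers summed to 32 reads in MEKi 3, against 1108 to 7131 in the other MEKi libraries and 2259 to 7648 in the control libraries. MEKi 1 held more Ins2 than control 2, which was far richer in acinar reads. All 12 islet markers were lower in sign in MEKi tumours, with 0 called and 1 at an unadjusted p under 0.05. Their part in the acinar values was not tested.

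Other acinar genes, 15 of 19 listed, were all lower in sign in MEKi tumours, with 0 called by limma, 1 at an unadjusted p under 0.05 and a median difference of -1.18. Spink1, which encodes a trypsin inhibitor, had 6.70, 7.43, 5.34 and 7.95 in MEKi 1 to 4, against 9.27, 12.17, 13.39 and 7.66 in control 1 to 4 (difference -3.77, limma adjusted p = 1). MEKi 4 exceeded control 4, so that the labels overlapped. Vamp8, a granule fusion gene that many cells use, averaged 12.02 ± 0.12 in MEKi tumours and 12.11 ± 0.07 in control tumours (SD, n = 4 each). Among the genes outside the list with profiles most like the mean of 20 enzyme genes over the 8 libraries were 2210010C04Rik, Reg2, Reg3a, Reg3d, Reg3b, Reg1, 1810028F09Rik, Amy2b and Spink1. Their root mean square deviation from that profile ran from 0.58 for 2210010C04Rik to 1.26 for Spink1 on the log2 scale. The 20 enzyme genes include Dnase1, which did not follow the others and deviated from the profile by 3.41. Reg genes encode secreted lectins, and 5 of the genes named belong to that family.

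Markers of other cells were set beside the acinar values. Duct marker means lay between 12.45 and 13.22 in MEKi tumours and between 13.02 and 13.14 in control tumours. Fibroblast marker means lay between 11.29 and 11.96 in MEKi tumours, against 11.47 to 12.52 in control tumours, where control 2 was highest. Macrophage marker means lay between 10.95 and 11.19 in MEKi tumours, against 11.05 to 11.91 in control tumours, where control 2 was again highest and control 3 had 11.27. In sign, 7 of 12 duct, 9 of 10 fibroblast and 10 of 10 macrophage markers were lower in MEKi tumours, with 0 called. Lists of lymphocyte, endothelial and adipocyte markers had 8, 6 and 5 measured genes, of which 3, 6 and 3 were lower in sign and 0 were called, with median differences of 0.22, -0.24 and -0.13. The part of other cells in the acinar differences was not tested.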

How the data were processed

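Total RNA from pancreatic tumour isografts was made into stranded libraries, per the labels' protocols. STAR 2.5.3a, DESeq2 1.18.1 and the build GRCm38 are named in the submitters' processing notes, while for the counting step, annotation and filter the sources name nothing. The deposited values are variance-stabilised on a log2-like scale by the authors, per the file name. Inverting the transformation from its lowest value, which stands for 0 reads, gave whole reads for 100% of values (within 0.01 of a whole number). Of 19431 rows, 32 naming no gene (0.101% to 0.167% of reads) were left out, and of 86 symbols on several rows 1 row each was used, that of the highest mean.

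Differences came from limma 3.58.1 under R 4.3.3 (trended eBayes, two-sided, Benjamini-Hochberg over 19129 genes, threshold 0.05), without covariates, after tests on simulated data. Ratios used exact permutation tests on log2 of normalised reads plus 0.5. Each library is 1 mouse. The members and lists were chosen with earlier results of these data known. Every listed gene may be named, and of other genes the 2 with the smallest p and the 2 with the highest mean per marker list, and the 10 most like the enzyme profile (genes with a mean of at least 7). 1 of these 10 is not reported here. Dusp6, a check of the labels, was chosen outside that rule. Transcript lengths, overlaps and 50-base stretches are from GENCODE M21 on GRCm38, with the longest coding transcript per gene. Alternatives were robust and untrended moderation, aligned medians, quantile normalization, a filter keeping 75% of genes by mean, every row kept, limma voom on recovered reads, a replicate block, each library left out, and for ratios a pseudocount of 5, the deposited scale and Cpb1 as denominator. Python 3.11.15 and matplotlib 3.10.9 were used.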

Additional observations from a re-analysis of the deposited data

How the results depend on the processing

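Limma called 0 of the 33 acinar genes, and 0 ratios to Cpa1 passed the threshold, in every alternative run. For ratios the replicate block, a sign-flip test of 4 pairs, allows no p below 0.125. Without both control 2 and control 3 too few tumours are left to reach the threshold. These runs say nothing of the ratios. In the other runs no ratio could pass by itself after adjustment, so their counts of 0 say little of the ratios. At an unadjusted p under 0.05 were 4 genes with all libraries, and 1 to 31 with a library left out, 31 without control 1 and 31 without control 4, 12 without MEKi 4. The count of all genes called was 1, against 0 with only the genes of the highest means, 0 with the replicate block, 0 to 2 with a library left out, 4 without both control 2 and control 3, and 0 without these and MEKi 3. The count of genes lower in sign, 33, was 17 without control 2 and control 3 and 4 without these and MEKi 3, and 31 to 33 in the other fits, 31 of 31 under the filter by mean. The median difference of -3.49 became -0.020 and 0.49 without those libraries. With a library left out that median lay between -4.85 and -1.998. The Dnase1 difference reversed under quantile normalization (0.028), aligned medians (0.0065) and limma voom (0.021), and lay between -0.097 and 0.081 with a library left out. With Cpb1 as denominator the Ctrb1 ratio turned to 0.17 and the Pnlip ratio to 0.24, against -0.52 and -0.45 with Cpa1. The cause was not tested. Same-numbered libraries had correlations of deviations of -0.33, 0.20, -0.46 and 0.02. These values do not show that the numbers pair the tumours, and they cannot exclude it. The replicate block called 0 of the 33 genes. Libraries of at least 20090101 reads leave genes such as Aqp8, Amy2a5 and Ctrc at a few reads in the poorest libraries, where ratios rest on counting error.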
